A study of Mus musculus with 15 samples.

Results

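Cytosolic ribosomal protein genes were described in the olfactory bulbs of mice with 3 settings of corticotropin-releasing hormone (CRH) receptor signalling. The genes were taken from the names on the array: Rps or Rpl followed by a number and up to a letter and a digit, together with Rplp0, Rplp1, Rplp2 and Rpsa. This gave 84 genes with 191 probes among 46405 names on the array. Each gene was represented by its brightest probe, and 83 of the 84 passed the filter on dim probes, out of 27240 genes tested in all. The gene that did not pass was Rpl10l, a copy of Rpl10 known from the testis, whose probes were well above background on at most 1 array.

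Male mice aged 6 to 8 weeks received 500 nL of adeno-associated virus in the bulb, and RNA of the whole bulb was taken 2 weeks later and hybridised to 1 array per mouse, with 5 mice in each of 3 groups. The knockout mice, of strain 129S4/SvJae, lacked the CRH receptor CRHR1 and received a virus that codes for green fluorescent protein (GFP), whose cargo is read only in cells with Cre recombinase. Their titles name no Cre. The Cre GFP mice, of strain C57Bl/6, carried Cre under the name of the same receptor and received the same kind of GFP virus; the protocol treats them as the stand-in for wild type. The active CRHR1 mice, also C57Bl/6 with Cre, received a virus that codes for a constitutively active CRHR1 in Cre-positive cells. In both comparisons that use the knockout group, the receptor's loss cannot be told apart from the strain and the Cre, and the active receptor was given only to the cells that carry Cre and virus while the RNA came from all cells of the bulb. In such RNA, fewer cells of a type and less RNA per cell cannot be told apart.

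The arrays lay on 2 slides. All 5 knockout arrays shared slide 1 with the first 3 of the Cre GFP group, and all 5 active CRHR1 arrays shared slide 2 with the remaining 2. The share of probes well above background ran from 58.75% to 66.9% per array, and the 75th percentile of an array's signal from 663.2 on knockout array 5 to 1172. All 10 granule cell and interneuron markers and all 6 mitral and tufted cell markers of the bulb passed the filter. The summed level of the former was 8.93 to 9.29 on knockout, 9.06 to 9.28 on Cre GFP and 8.80 to 9.04 on active CRHR1 arrays. All 10 had a lower mean in active CRHR1 than in Cre GFP mice, with a median change of -0.243 on the log2 scale.

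The cytosolic ribosome is built from ribosomal RNA and a set of proteins, each needed at about the same number of copies. The small subunit (Rps genes) decodes the messenger RNA and the large subunit (Rpl genes) joins the amino acids. Their messenger RNAs are among the most abundant of any cell and open with a 5′ terminal oligopyrimidine (TOP) tract, a C followed by a run of C and T in the gene, through which the mTOR kinase and the protein LARP1 set how well they are translated. In neurons the proteins are made both in the cell body and in processes.

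The start of the transcript is shown for 8 members because this tract is the sequence by which the family is known, and because several of these genes stand apart in the values that follow. RefSeq promoters (build GRCm38.p6) were at hand for 60 of the 83 genes. Each line gives 15 bases before and 15 bases from the annotated start on the gene's strand, 5′ to 3′. Capitals mark the longest run of C and T that opens with C, holds at least 6 bases and begins within 5 bases of the start.
Rps6 (chr4:86857353-86857382, minus strand): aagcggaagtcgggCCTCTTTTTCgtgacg
Rps27 (chr3:90213634-90213663, minus strand): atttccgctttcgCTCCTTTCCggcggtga
Rpl28 (chr7:4792950-4792979, plus strand): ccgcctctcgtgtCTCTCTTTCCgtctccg
Rpl13a (chr7:45128731-45128760, minus strand): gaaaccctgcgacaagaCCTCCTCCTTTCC
Rps2 (chr17:24720048-24720077, plus strand): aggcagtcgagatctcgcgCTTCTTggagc
Rpl34 (chr3:130730384-130730413, minus strand): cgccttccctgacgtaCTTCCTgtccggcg
Rps27l (chr9:66946071-66946100, plus strand): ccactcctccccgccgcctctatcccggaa
Rplp0 (chr5:115559452-115559481, plus strand): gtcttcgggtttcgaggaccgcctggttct
Such a run was found in 25 of the 60 members, 41.7%, and in 2759 of all 27025 promoters of the table, 10.2%. On the opposite strand of the same window it was found in 2 members, 3.33%, and in 12.7% of all promoters. Starting exactly at the annotated base it was found in 10 members, 16.7%, against 1.72% of all promoters. The paralog Rps27l and the stalk gene Rplp0 had no such run in this window, and that of Rpl34 held only 6 bases. Starts of transcripts in the bulb were not measured. A missing run in this window therefore does not show that a messenger RNA lacks the tract.

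A level is the log2 signal of a probe after subtracting the 75th percentile of its array, so that 0 is the 75th percentile of the array. Group values are mean ± SD over 5 mice. A level depends on the probe as well as on the RNA, so levels of different genes were not compared. Of the 83 genes, 82 were well above background on every array and 78 had a level above 3 on every array. The others were Rps21, Rps4y2, Rpl7l1, Rpl3l and Rpl39l, of which all but Rps21 are copies of another ribosomal protein gene or named as such. Rpl39l was not well above background on 1 active CRHR1 array. The probes with the highest signal were those of Rps14 at a mean level of 8.10 over all arrays, Rpl37a at 7.86, Rps29 at 7.77, Rpl41 at 7.74 and Rpl38 at 7.61. In the plot of levels by gene the 3 groups lie within a narrow band for nearly every member, with the knockout mean on top.

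**Figure D1:**
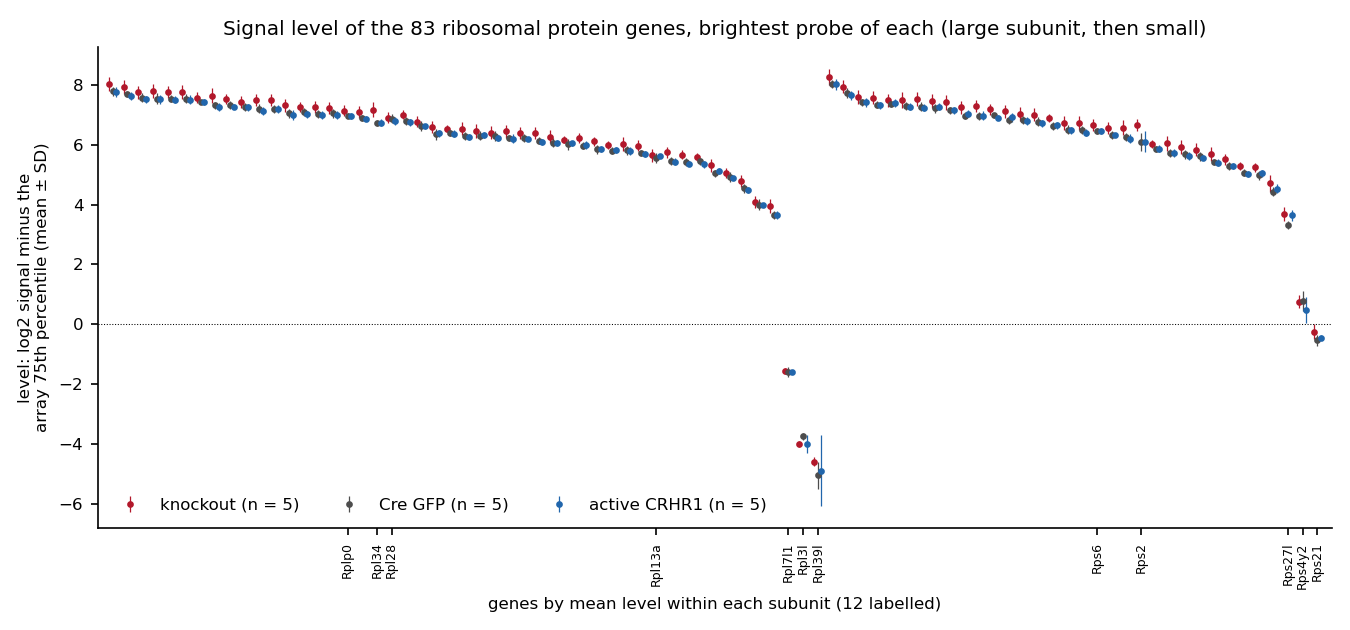
Level of each of the 83 genes (log2 signal minus the array's 75th percentile) by group, as mean ± SD of 5 mice; genes are ordered by mean level within the large and then the small subunit, and levels of different genes are not comparable. The knockout mean is above both other group means in 81 of the 83 genes on this scale; scaling to the spike-in probes turns this direction, while median centring and quantile normalization keep the knockout median above both groups.

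In knockout against Cre GFP bulbs, which asks for the effect of losing the receptor but also holds the strain, the mean was higher in nearly every member while only Rpl34 passed the test. The knockout mean was the higher one in 81 of 83 genes, with a median change of 0.224 on the log2 scale, or 1.17-fold, where the median over all 27240 genes was 0.005. That mean was also the higher one in 13901 of all 27240 genes and in 879 of the 1244 other genes with a mean level of at least 5. The quartiles of the change were 0.19 and 0.27 in the members and -0.13 and 0.15 in all genes. Rpl34, a protein of the large subunit, was called higher, 1 of 83 members or 1.2%, where 1.97% of all genes were called higher and 1.4% lower. No member was called lower. An unadjusted p under 0.05 was reached by 49 members and by 5407 of all 27240 genes. The members varied together from array to array on this scale, so the 49 are not separate results.

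Rpl34 had levels of 7.02, 7.04, 6.93, 7.27 and 7.54 in the knockout mice, 6.70, 6.88, 6.63, 6.66 and 6.75 in the Cre GFP mice and 6.69, 6.58, 6.74, 6.92 and 6.72 in the active CRHR1 mice. Every knockout array lay above every array of the other groups, the lowest at 6.93 and the highest other array at 6.92. The change was 0.44 ± 0.11 (SE), or 1.36-fold, with an adjusted p of 0.038 by limma. The groups also did not overlap in Rps27l, if only beyond the second decimal, which gave 2 members without overlap, 2.41%, against 3.15% of all genes. The call of Rpl34 was lost when any of 10 of the 15 arrays was left out (adjusted p 0.0283 to 0.0947 over the 15), with the slide as a block (0.122) and in the 8 arrays of slide 1 alone (0.317), where the change was 0.423.

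The family's higher mean level rested in part on 2 knockout arrays. The mean level over the 83 genes was 5.977, 5.990, 5.953, 6.174 and 6.403 on the knockout arrays, 5.818, 6.050, 5.792, 5.773 and 5.958 on the Cre GFP arrays and 5.784, 5.783, 5.874, 6.033 and 5.834 on the active CRHR1 arrays. Knockout arrays 4 and 5 were the highest of all 15, while knockout arrays 1 to 3 lay below Cre GFP array 2. Knockout array 5 was the highest of the 15 for 79 of the 83 genes. Without knockout array 5 the median change was 0.145, and without arrays 4 and 5 it was 0.093, with 0 genes called (an alternative chosen after seeing the data).

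Some members have known roles or uses of their own. Rps6, the small subunit protein that S6 kinases phosphorylate, had levels of 6.67 ± 0.20 in knockout, 6.46 ± 0.09 in Cre GFP and 6.47 ± 0.10 in active CRHR1 mice. Rps27a, which is made as a fusion with ubiquitin, stood at 7.41 ± 0.24, 7.14 ± 0.13 and 7.14 ± 0.13. Rpsa, also known as the laminin receptor, stood at 7.18 ± 0.19, 6.98 ± 0.09 and 6.90 ± 0.09. The stalk of the large subunit, which recruits elongation factors, is formed by Rplp0 with Rplp1 and Rplp2. Rplp0, often used as a reference gene, stood at 7.13 ± 0.18, 6.97 ± 0.09 and 6.96 ± 0.11 in the same order, Rplp1 at 7.49 ± 0.20, 7.18 ± 0.14 and 7.18 ± 0.13, and Rplp2 at 7.42 ± 0.20, 7.26 ± 0.13 and 7.24 ± 0.12. None of these genes passed the test in knockout against Cre GFP mice, and the ranges of the knockout and Cre GFP groups overlapped in each. Rpsa and Rplp1 were called lower in active CRHR1 against knockout mice (adjusted p 0.0335 and 0.041 by limma), where 16.2% of all genes were. The ranges of those groups did not overlap in Rplp1.

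In active CRHR1 against Cre GFP bulbs, which share the strain and the Cre, no member passed the test. The active CRHR1 mean was higher in 25 genes and lower in 58, with a median change of -0.021, beside -0.065 for all genes tested. Of all genes 10424 had a higher mean and 16816 a lower one. Of the 27240 genes 3.91% were called higher and 4.6% lower, so 0 of 83 members stood against a background of 8.51% in either direction. The quartiles of the members were -0.05 and 0.01. An unadjusted p under 0.05 was reached by 1 member, Rps27l, and by 7379 of all 27240 genes. Among the 1244 other genes with a mean level of at least 5, the median change was -0.148 and 80 genes were called lower. In knockout against Cre GFP mice the same genes had a median change of 0.066.

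Between active CRHR1 and knockout bulbs, the groups labelled as high and low in CRH signalling but also of different strain, 20 members fell and none rose. The active CRHR1 mean was the lower one in all 83 genes, with a median change of -0.248, or 1.19-fold lower, beside -0.068 for all genes. That mean was also the lower one in 16175 of all 27240 genes and in 1140 of the 1244 other genes with a mean level of at least 5. The 20 calls were 24.1% of the members, where 16.2% of all genes were called lower and 9.37% higher. An unadjusted p under 0.05 was reached by 52 members and by 11276 of all 27240 genes. Of the 20, 13 belong to the large subunit (among them Rpl3, Rpl9, Rpl21, Rpl31, Rpl34, Rpl39 and Rplp1) and 7 to the small one (among them Rps2, Rps7, Rps15, Rps27 and Rpsa). The falls ran from 1.19-fold to 1.46-fold, the last that of the brightest Rps2 probe. Of the 1244 other genes of high signal 457 were called lower, with a median change of -0.226, beside -0.248 for the members.

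The largest fall was that of Rps2, a protein of the entry side of the small subunit. Its brightest probe had levels of 6.54, 6.52, 6.49, 6.73 and 6.96 in the knockout mice, 6.27, 6.55, 5.84, 5.82 and 6.00 in the Cre GFP mice and 6.32, 5.68, 5.79, 6.44 and 6.27 in the active CRHR1 mice. The change was -0.55 ± 0.17 with an adjusted p of 0.0356 by limma, and every active CRHR1 array lay below every knockout array. Rpl34 fell by 0.43 (SE 0.11, adjusted p 0.0124 by limma).

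Rpl9, a protein near the base of the stalk, had levels of 7.51, 7.48, 7.43, 7.70 and 8.03 in knockout, 7.30, 7.47, 7.21, 7.16 and 7.41 in Cre GFP and 7.12, 7.20, 7.31, 7.45 and 7.23 in active CRHR1 mice. It fell by 0.37 (SE 0.11, adjusted p 0.0293 by limma), and the ranges overlapped because active CRHR1 array 4 stood above knockout array 3. Rpl3, which lies next to the centre of peptide bond formation, had levels of 7.34, 7.43, 7.35, 7.51 and 7.82 in knockout, 7.22, 7.44, 7.08, 7.04 and 7.24 in Cre GFP and 7.02, 6.98, 7.24, 7.31 and 7.12 in active CRHR1 mice. It fell by 0.36 (SE 0.10, adjusted p 0.0265 by limma) with no overlap between the 2 groups. In all, 6 members had no overlap in this direction, Rpl3, Rpl21, Rpl34, Rplp1, Rps2 and Rps4x, which is 7.23% of the members against 11.8% of all genes.

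The number of members called in active CRHR1 against knockout bulbs moved widely with the arrays and the fit. It was 34 without knockout array 3, 2 without knockout array 4 and 2 without knockout array 5. It was 3, 2, 10, 36 and 2 without active CRHR1 arrays 1 to 5 in turn, and 0 without knockout arrays 4 and 5 together, where the median change was -0.114. With the slide as a fixed block it was 0, and with the slide as a random block 54. No slide held both groups.

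The direction of the family's change depended on how the arrays were put on a common scale. With each array centred on its median in place of its 75th percentile, the medians were 0.167 (knockout against Cre GFP), -0.118 (active CRHR1 against Cre GFP) and -0.289 (active CRHR1 against knockout). Calls numbered 0, 0 and 2 members, the last both lower (Rps2 and Rpl34). The same comparisons had background shares of 0.488% higher and 1% lower, 2.61% higher and 2.05% lower, and 7.47% higher and 7.98% lower. Under median centring the mean of the active CRHR1 mice was below that of the Cre GFP mice in 81 of 83 members. The same held for 20033 of all 27240 genes and for 1202 of the 1244 other genes with a mean level of at least 5. The median of all genes itself moved by -0.056, -0.098 and -0.041 between the scalings.

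Scaled to 7 spike-in control probes, the order of the groups turned round. The family then had a median change of -0.123 in knockout against Cre GFP, 0.196 in active CRHR1 against Cre GFP and 0.315 in active CRHR1 against knockout bulbs. Rps27l was called higher in active CRHR1 against Cre GFP, where 3.3% of all genes were called higher and 0.0991% lower, and no member was called in knockout against Cre GFP, where 0.121% were called higher and 3.33% lower. In the last comparison 71 of 83 members were called higher, 85.5%, where 64.9% of all genes were called higher and 0.584% lower. This scaling moved the median of all genes by -0.347, 0.216 and 0.563. Every gene of an array is shifted by the same amount, so the family's place relative to all genes cannot differ from that on the scale of levels. Its median thus lay above that of all genes in knockout against Cre GFP (-0.123 beside -0.342). In active CRHR1 against knockout it lay below (0.315 beside 0.495). These pairs are therefore no separate test of the family's place among all genes. Whether equal amounts of spike-in were added to each RNA is not given in the sources used here.

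Quantile normalization, which gives every array the same distribution, placed the family above Cre GFP in both other groups. The median change was 0.124 in knockout and 0.096 in active CRHR1 mice, with the mean higher in 80 of 83 genes in each. Of all 27240 genes 12497 and 10747 had a higher mean, in the same order. In knockout mice 11 members were called higher, 13.3% against a background of 2.69%, among them Rpl5, Rpl9, Rpl22, Rpl34, Rps27 and Rps27l. In active CRHR1 mice 5 were called higher, 6.02% against 3.85%: Rpl22, Rps12, Rps12l2, Rps20 and Rps27l. These comparisons share the Cre GFP arrays. Between active CRHR1 and knockout bulbs the median was -0.026, with 2 members called lower and 2 higher, where 13.7% and 11.2% of all genes were called.

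Before any scaling the group ranges of the family's mean log2 signal overlapped. It lay between 15.729 and 15.861 in knockout, 15.707 and 15.826 in Cre GFP and 15.774 and 15.978 in active CRHR1 mice, while the 75th percentile of the arrays differed by group, 827 ± 113 in knockout, 945 ± 76.3 in Cre GFP and 1024 ± 97.7 in active CRHR1 mice. The plot of the family mean by array shows the turn: knockout array 5 is the highest array under the first and second scaling and the lowest under the third.

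**Figure D2:**
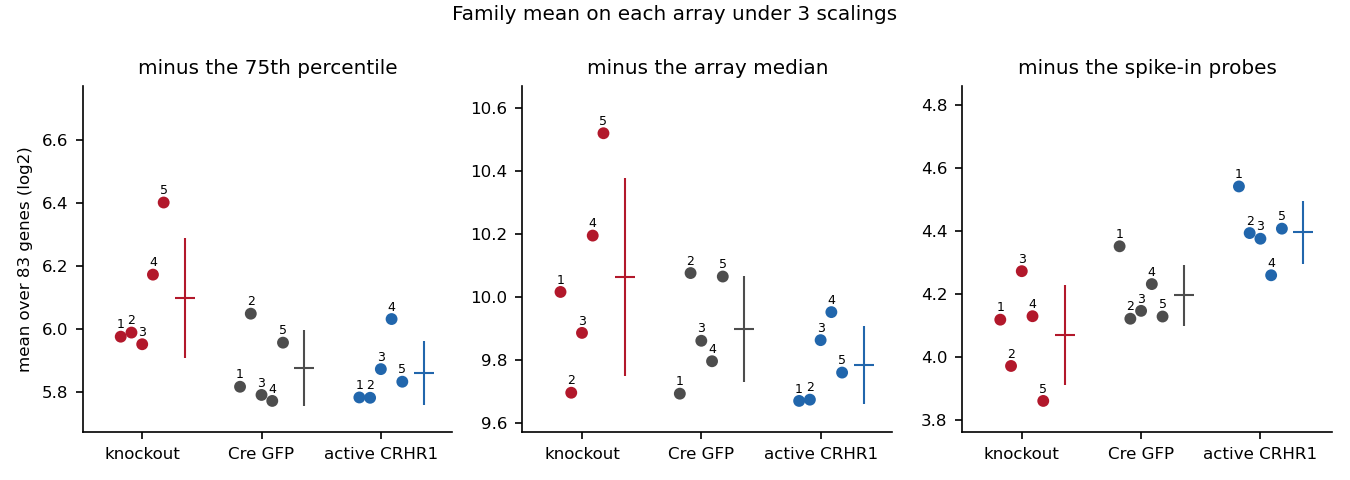
Mean over the 83 genes on each array (log2), minus the array's 75th percentile, its median or the mean of 7 spike-in probes; numbers are replicates and the bars give mean ± SD of 5 mice. The knockout arrays are high with the first scaling (5.953 to 6.403) and low with the spike-in probes (3.859 to 4.271), where the active CRHR1 arrays lie at 4.258 to 4.540.

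**Figure D3:**
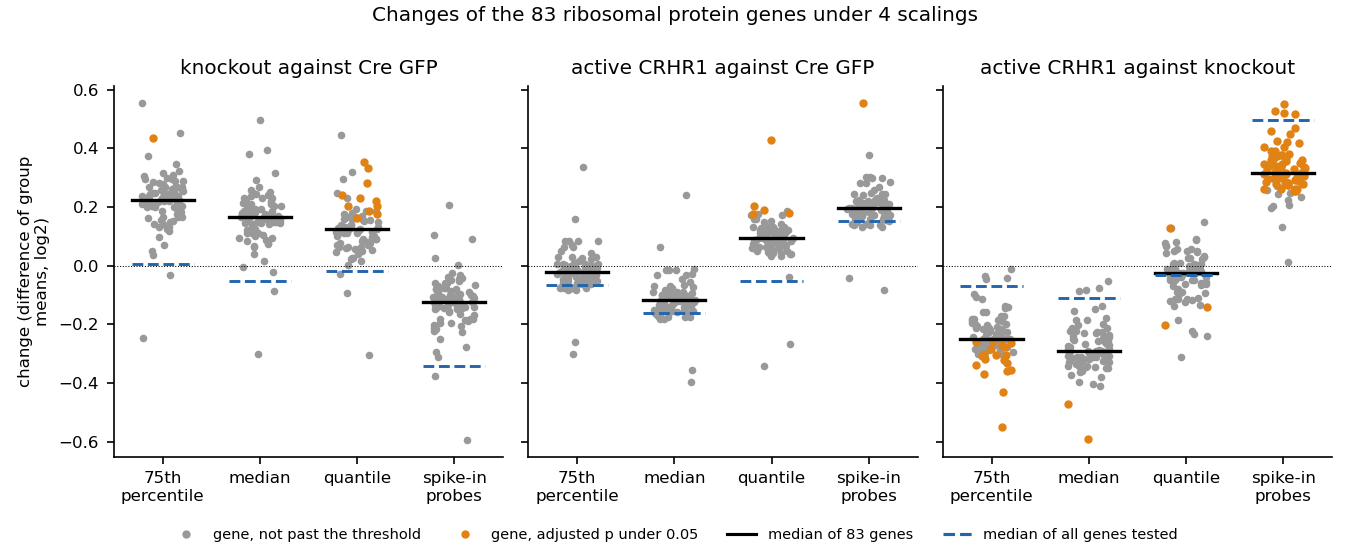
Change of each of the 83 genes (log2 difference of group means) in the 3 comparisons under 4 scalings; orange points passed an adjusted p of 0.05, the black line is the members' median and the dashed blue line that of all genes tested. The median of the members in active CRHR1 against knockout is -0.248, -0.289, -0.026 and 0.315 from left to right.

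On the scale of levels the members varied together from array to array, and this shared variation depended on the scaling. The SD of the family mean within a group was 0.191 in knockout, 0.120 in Cre GFP and 0.103 in active CRHR1 mice on that scale. Before any scaling it was 0.049, 0.048 and 0.078 in the same order. The median SD of a member within a group was 0.16 on the scale of levels and 0.052 once the mean of the family on the same array had been taken away, against 0.189 for all genes tested on the scale of levels. Values relative to the family mean do not depend on the array's scaling factor, and were added after seeing the data to ask which members moved apart from the rest. Very few did, as the plot of single genes against the family mean shows. The quartiles of the change were -0.04 and 0.05 in knockout against Cre GFP, -0.04 and 0.02 in active CRHR1 against Cre GFP and -0.05 and 0.04 between active CRHR1 and knockout mice. Adjusted p values on this scale were taken over all 27240 genes, of which 22426 had a lower mean in knockout than in Cre GFP bulbs. A member's adjusted p therefore depends on the shift of genes outside the family, and no adjustment over the members alone was made.

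Rpl34 rose against the family in knockout mice. Relative to the family mean it stood at 1.04, 1.05, 0.98, 1.10 and 1.13 in knockout, 0.88, 0.83, 0.84, 0.89 and 0.79 in Cre GFP and 0.91, 0.79, 0.87, 0.88 and 0.88 in active CRHR1 mice. All 5 knockout arrays lay above the other 10. The change was 0.21 ± 0.05 against Cre GFP (adjusted p 0.0251 by limma) and -0.19 ± 0.05 in active CRHR1 against knockout (adjusted p 0.0270), as 1 of 83 members called in that direction, where 0.753% of all genes were called higher and 2.19% lower. Each call was lost when any of 5 of the 15 arrays was left out (adjusted p 0.0245 to 0.0664 and 0.0218 to 0.0694 over the 15), with the slide as a fixed block (0.1 and 0.376), with the replicate block (0.0636 and 0.0594) and without knockout arrays 4 and 5 (0.152 and 0.151). The change lay between 0.179 and 0.236 against Cre GFP and between -0.212 and -0.155 against knockout over all 22 alternatives.

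Rpl28, a large subunit protein, moved the other way in knockout mice. Relative to the family it stood at 0.85, 0.74, 0.82, 0.84 and 0.76 in knockout, 0.96, 1.04, 0.99, 0.95 and 0.99 in Cre GFP and 0.92, 0.91, 0.92, 0.95 and 0.92 in active CRHR1 mice. The knockout arrays lay below all others. The change against Cre GFP was -0.18 ± 0.05 (adjusted p 0.0308 by limma), while the level itself changed by 0.04 ± 0.10. On this scale 13.4% of all genes were called lower in that comparison. The call of Rpl28 was lost when any of 6 of the 15 arrays was left out (adjusted p 0.0323 to 0.0734 over the 15), with the slide as a fixed block (0.101), with the replicate block (0.0782) and without knockout arrays 4 and 5 (0.134).

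Rpl13a, a large subunit protein also known for silencing of messenger RNAs after interferon, rose relative to the family in active CRHR1 against knockout bulbs. It stood at -0.48, -0.50, -0.43, -0.42 and -0.41 in knockout, -0.27, -0.22, -0.42, -0.31 and -0.41 in Cre GFP and -0.20, -0.22, -0.22, -0.38 and -0.26 in active CRHR1 mice. The change of 0.19 ± 0.06 had an adjusted p of 0.0421 by limma, with 15.3% of all genes called higher there. It was lost when any of 10 of the 15 arrays was left out, and its 2 dimmer probes changed by -0.09 and -0.10 in level where the brightest changed by -0.05.

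Rps27l was the member called apart from the family in active CRHR1 against Cre GFP mice. It is a near copy of Rps27 and a known target of p53. Its levels were 3.52, 3.52, 3.60, 3.66 and 4.09 in knockout, 3.17, 3.52, 3.33, 3.23 and 3.28 in Cre GFP and 3.84, 3.37, 3.64, 3.74 and 3.62 in active CRHR1 mice. Cre GFP mice were lowest, with array 2 above 1 active CRHR1 array. Against Cre GFP the level changed by 0.34 ± 0.12 in active CRHR1 (adjusted p 0.0849 by limma) and 0.37 ± 0.12 in knockout mice (0.0948). Relative to the family the values were -1.95, -2.41, -2.23, -2.29 and -2.21 in active CRHR1 and -2.65, -2.53, -2.47, -2.54 and -2.68 in Cre GFP mice, which do not overlap, and -2.46, -2.47, -2.35, -2.51 and -2.31 in knockout mice. The rise of 0.35 ± 0.08 in active CRHR1 against Cre GFP had an adjusted p of 0.0246, where 3.11% of all genes were called higher. It was 0.392 with the slide as a block (adjusted p 0.0998) and 0.287 without active CRHR1 array 1 (0.0534). The call was lost when any of 4 arrays was left out (adjusted p 0.00954 to 0.0745 by limma over all arrays left out in turn). Among all 22 alternatives it was lost in 6.

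**Figure D4:**
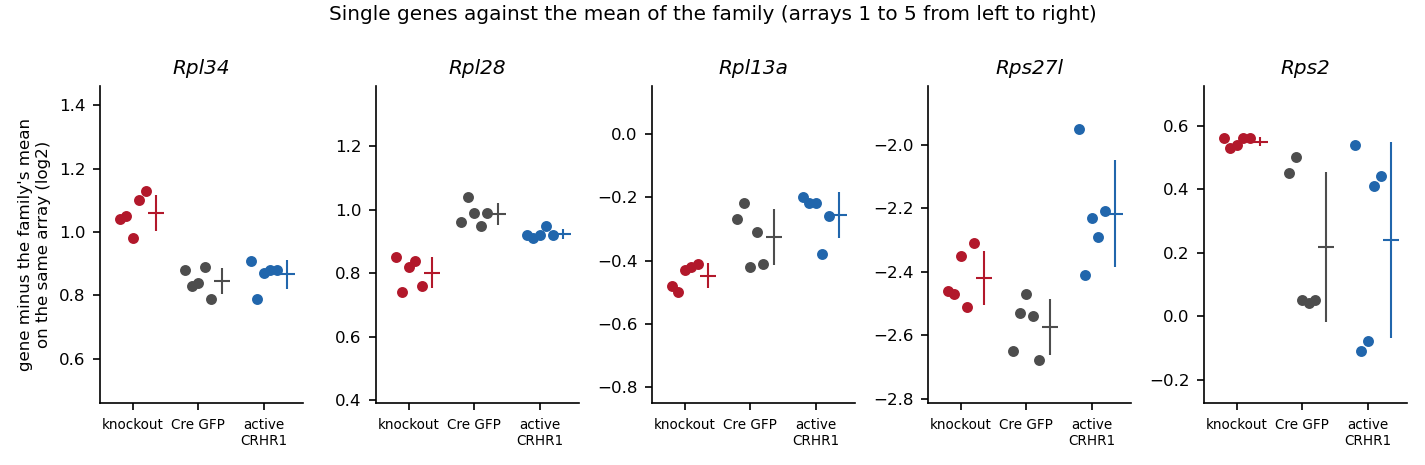
Rpl34, Rpl28, Rpl13a, Rps27l and Rps2 minus the mean of the 83 genes on the same array (log2), for arrays 1 to 5 of each group from left to right, with mean ± SD at the side; every panel spans 1 log2 unit. The knockout arrays stand above the rest in Rpl34 and below them in Rpl28, active CRHR1 stands above Cre GFP in Rps27l, and Rps2 falls into separate high and low values within Cre GFP and active CRHR1.

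The probe of Rps2 was of a different kind. Relative to the family its values lay between 0.53 and 0.56 on all 5 knockout arrays. Cre GFP arrays 1 and 2 stood at 0.45 and 0.50 and arrays 3 to 5 at 0.05, 0.04 and 0.05, while active CRHR1 arrays 1, 4 and 5 stood at 0.54, 0.41 and 0.44 and arrays 2 and 3 at -0.11 and -0.08. A second probe of Rps2 lies 18 Mb away on the same chromosome in the coordinates of the array design, which are those of build mm9. The sequences of both are given because the gene's largest fall rests on the first of them.
Rps2 brightest probe (chr17:42864841-42864900): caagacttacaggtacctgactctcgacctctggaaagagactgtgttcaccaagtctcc
Rps2 second probe (chr17:24857583-24857642): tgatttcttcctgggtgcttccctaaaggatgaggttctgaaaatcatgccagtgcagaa
The brightest probe exceeded the second by 0.67 to 0.75 on 10 arrays and by 0.08 to 0.19 on the other 5, Cre GFP arrays 3, 4 and 5 and active CRHR1 arrays 2 and 3. These 5 arrays were on both slides. The second probe gave a level of 5.94 ± 0.18 in knockout, 5.73 ± 0.10 in Cre GFP and 5.62 ± 0.06 in active CRHR1 mice. Its fall in active CRHR1 against knockout bulbs was 0.33 (SE 0.08, adjusted p 0.0152 by limma with every kept probe tested), where the first probe fell by 0.55.

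Rpl34 also had a second kept probe, and both are printed because this is the member called in knockout mice. The coordinates of the first span more than its length of 60 bases, and those of the second span just that length.
Rpl34 brightest probe (chr3:130429830-130431677): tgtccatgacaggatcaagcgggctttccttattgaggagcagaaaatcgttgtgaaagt
Rpl34 second probe (chr3:130431671-130431730): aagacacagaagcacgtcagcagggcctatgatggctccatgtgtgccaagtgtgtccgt
The second probe had levels of 6.43, 6.45, 6.42, 6.70 and 6.90 in knockout, 6.21, 6.31, 6.08, 6.10 and 6.24 in Cre GFP and 6.16, 6.11, 6.16, 6.38 and 6.17 in active CRHR1 mice. Again all knockout arrays lay above all others. Its change was 0.39 ± 0.10 in knockout against Cre GFP (adjusted p 0.0378 by limma, with 1.89% of all probes called higher) and -0.38 ± 0.10 in active CRHR1 against knockout (0.0132).

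Other genes also had several probes. In 62 members more than 1 probe passed the filter, which gave 106 further probes. Of the 74 further probes with a mean level of at least 4, 70 changed within 0.1 of the brightest probe in knockout against Cre GFP mice, and of the 32 dimmer ones 12 did. In 8 genes the probes had opposite signs, Rpl6, Rpl11, Rpl17, Rpl21, Rpl31, Rps6, Rps25 and Rpsa, and in none of these did both pass the test. With every kept probe tested on its own, 47 of 189 member probes fell in active CRHR1 against knockout bulbs, 24.9% against 16.1% of all 33943 probes. A dim probe of Rps25 rose, where 9.51% of all probes were called higher, with levels of -3.91, -3.32, -3.59, -2.59 and -3.11 in knockout and -2.36, -2.68, -3.21, -2.72 and -2.38 in active CRHR1 mice (change 0.63 ± 0.21, adjusted p 0.0427 by limma). Against Cre GFP 1 probe fell in active CRHR1 mice, where 4.61% of all did, a dim one of Rpl21 (change -0.21 ± 0.06, adjusted p 0.0425).

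Not every brightest probe lies where the gene does. In 74 of 83 members the probe's chromosome in the array design was that of the RefSeq gene, in 7 it was another and in 2 no comparison could be made. Rpl3, Rpl28, Rps4x and Rps27 were among the 7. Ribosomal protein genes have many processed copies elsewhere in the genome, and RNA of near-identical copies cannot be told apart from that of the gene at these probes or at that of Rps2. The second probe of Rpl28 lies on the chromosome of the gene and gave changes of 0.05 ± 0.10 and -0.03 ± 0.10 in knockout and active CRHR1 against Cre GFP, close to the 0.04 and -0.08 of the first.

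**Figure D5:**
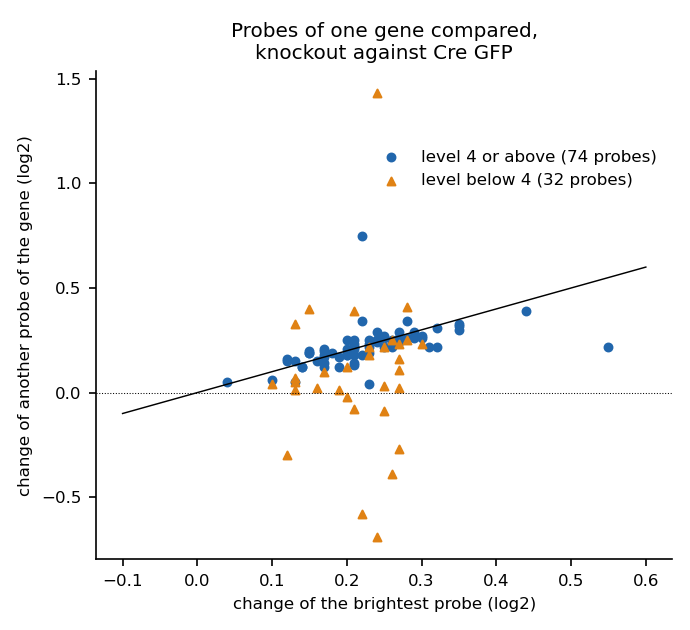
Change of each further probe of a gene (y) against that of its brightest probe (x) in knockout against Cre GFP bulbs, both as log2 differences of group means; the line marks equal change. Probes with a mean level of at least 4 lie near the line in 70 of 74 cases, and dimmer ones scatter on both sides.

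The copies of ribosomal protein genes were set beside their parents. Rpl22l1, the partner of Rpl22 in blood and early development, stood at 5.58 ± 0.14 in knockout, 5.44 ± 0.13 in Cre GFP and 5.35 ± 0.12 in active CRHR1 mice. Rpl22 stood at 5.31 ± 0.22, 5.04 ± 0.11 and 5.12 ± 0.09, and neither passed the test in any comparison. Rpl3l, a muscle form of Rpl3, was dim at -3.98 ± 0.10, -3.73 ± 0.12 and -3.99 ± 0.30 and was 1 of the 2 members whose mean was lower in knockout than in Cre GFP mice (change -0.25 ± 0.12, adjusted p 0.278 by limma). The other was Rps4y2, which RefSeq calls Rps4l, a copy of Rps4x, at 0.76 ± 0.22, 0.79 ± 0.34 and 0.49 ± 0.44. Rps4x itself stood at 5.83 ± 0.21, 5.61 ± 0.15 and 5.56 ± 0.06. Rpl7l1, which resembles Rpl7 and acts in ribosome assembly, stood at -1.54 ± 0.10, -1.59 ± 0.16 and -1.58 ± 0.07, beside 6.39 ± 0.20, 6.22 ± 0.14 and 6.20 ± 0.06 for Rpl7. Rpl39l, a testis copy of Rpl39, stood at -4.58 ± 0.15, -5.04 ± 0.44 and -4.88 ± 1.18, the last with 1 array at -6.95. None of these copies passed the test.

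The subunits had like medians. The median change in knockout against Cre GFP was 0.239 in 34 small subunit genes and 0.217 in 49 large subunit genes. In active CRHR1 against knockout it was -0.248 and -0.249. Genes with and without the run of C and T near the annotated start also had like medians, 0.23 in 25 genes and 0.22 in 35 in knockout against Cre GFP, and -0.25 in both in active CRHR1 against knockout. Genes without the run may still have the tract. Fau and Gnb2l1 (the array's name for Rack1), proteins of the small subunit that the name rule leaves out, changed by 0.21 and 0.20 in knockout against Cre GFP, -0.06 and -0.04 in active CRHR1 against Cre GFP, and -0.28 and -0.24 between active CRHR1 and knockout bulbs, and neither passed the test.

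Other genes of the translation machinery were counted from lists of known members. Of 10 elongation factors and other messenger RNAs with a TOP tract, 4 fell in active CRHR1 against knockout bulbs, where 16.2% of all genes were called lower and 9.37% higher, with a median change of -0.197: Eef1a2, an elongation factor of neurons and muscle (-0.38, adjusted p 0.0110 by limma), Naca, a chaperone of nascent chains (-0.33, 0.0295), Pabpc1, which binds poly(A) tails (-0.19, 0.0342), and Btf3 (-0.28, 0.0406). Eef1a2 also fell in active CRHR1 against Cre GFP (-0.32, 0.0453). Of 29 initiation factors 3 fell in active CRHR1 against knockout and none rose, a smaller share than the 16.2% of all genes, and of 76 mitochondrial ribosomal proteins, whose ribosome is separate from the cytosolic one, 21 fell and none rose with a median of -0.178. Against Cre GFP, active CRHR1 mitochondrial ribosomal proteins had a lower mean in 75 of 76 cases, with a median of -0.147 and 4 called lower beside 4.6% of all genes, where the cytosolic family had a median of -0.021.

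Genes of ribosome assembly were counted in the same way. Of 27 ribosome biogenesis genes 3 rose in active CRHR1 against knockout and none fell, a share near the 9.37% of all genes called higher there (Gnl3, a nucleolar GTPase, by 0.31, adjusted p 0.0114 by limma; Wdr43 by 0.20, 0.0128; Nolc1 by 0.23, 0.0250), and the median was 0.030. In knockout against Cre GFP the median of this list was -0.055 with 21 of 27 means lower, and none was called. Of 14 RNA polymerase I genes Cd3eap, a subunit of the enzyme, rose in knockout against Cre GFP (0.37, 0.0109), fell in active CRHR1 against Cre GFP (-0.24, 0.0464) and fell in active CRHR1 against knockout (-0.61, 0.00018), while Taf1d rose in the last comparison (0.27, 0.0228). These were the calls on that list, beside 1.97% of all genes higher, 4.6% lower, 16.2% lower and 9.37% higher in the same order.

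In the mTOR pathway, which acts on TOP messenger RNAs, 1 of 16 genes rose in active CRHR1 against Cre GFP, where 3.91% of all genes were called higher. It was Eif4ebp1, the repressor of cap-dependent translation that mTOR inactivates, at 0.98 in active CRHR1, 0.24 in Cre GFP and 0.19 in knockout mice (change 0.75, adjusted p 0.00162 by limma). Rps6kb1, the kinase of Rps6, fell in knockout against Cre GFP (-0.34, 0.0289) and rose in active CRHR1 against knockout (0.38, 0.00462), where Rps6kb2 rose too (0.69, 0.0243). With Eif4ebp1 (0.79, 0.000864) this made 3 of 16 called higher in active CRHR1 against knockout, beside 9.37% of all genes, and 1 of 16 lower in knockout against Cre GFP, beside 1.4%. A separate list held 8 factors of ribosomal protein promoters and nucleolar stress. Of these 1 was called higher in active CRHR1 against Cre GFP, beside 3.91% of all genes, and none lower. It was Myc, a driver of ribosomal gene transcription (0.43, 0.0378), at a level of -2.59 against -3.02. Levels of messenger RNA do not show the activity of the kinases named here.

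Markers of other cell types moved in the same comparisons. In knockout against Cre GFP, where 1.97% of all genes were called higher, 3 of 5 markers of olfactory ensheathing glia, 3 of 7 of endothelial cells and pericytes, 2 of 7 of astrocytes, 1 of 7 of oligodendrocytes and 1 of 3 of B cells were called higher and no marker lower. The summed level of ensheathing glia was 7.15 to 7.47 on knockout and 6.82 to 7.25 on Cre GFP arrays, and their median change was 0.315. Active CRHR1 against Cre GFP bulbs had 10 of 13 microglia markers and 5 of 7 T cell markers called higher, beside 3.91% of all genes. So were 1 of 7 markers of astrocytes, 1 of 7 of endothelial cells and pericytes and 1 of 3 of B cells. Called lower were 2 of 7 oligodendrocyte markers and 2 of 10 granule cell and interneuron markers, beside 4.6% of all genes. The summed microglia level was 7.31 to 7.93 on active CRHR1, 6.65 to 7.08 on Cre GFP and 6.86 to 7.24 on knockout arrays. Against knockout bulbs 7 of 13 microglia markers and 2 of 7 T cell markers were called higher, beside 9.37% of all genes. Another 1 of the 13 microglia markers was called lower. Of 7 astrocyte markers 1 was called higher and 1 lower. Called lower were also 2 of 7 markers of endothelial cells and pericytes and 1 of 10 of granule cells and interneurons. There 6 of 7 oligodendrocyte markers were called lower, beside 16.2% of all genes, with a summed level of 6.92 to 7.26 against 7.54 to 7.87, and all 5 markers of ensheathing glia, with 6.64 to 6.96 against 7.15 to 7.47. Red blood cell markers had 1 of 5 called lower there, near the share of all genes, and a summed level of 8.15 to 8.70 against 8.22 to 8.87. Their part in the ribosomal protein values was not tested.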

How the data were processed

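Bulb RNA of 15 mice was measured on 1-colour arrays, from 100 ng of total RNA labelled with Cy3 per the labels' protocols. Per the file headers, spot intensity was extracted by the scanner software of Agilent (Feature Extraction 10.7.3.1), which subtracts background within an array and scales nothing between arrays. Its deposited flags for background and outliers were used as filters. The authors' series table holds a signal that equalled a spot's processed intensity over the median of its array, as found by setting both side by side, and served as an alternative. Probe coordinates are of build mm9, per the file headers.

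Control and outlier spots were left out, 0 spots were saturated, and the 75th percentile of each array was subtracted from log2 of the deposited processed intensity. Probes well above background on at least 4 of 5 arrays of any group were kept, 33968 of 55681, and the brightest kept probe stood for a gene under the array's own name. limma 3.58.1 (lmFit and eBayes, R 4.3.3) compared the groups over all 15 arrays, with Benjamini-Hochberg adjustment over 27240 genes and a threshold of 0.05. The fit that compares the groups was tested on simulated data. The number of arrays limits the precision. The members, lists and tests were chosen with earlier results of these data known. Members were named by size of change, as copies beside their parent genes, by highest signal or by known role, and genes or probes outside that rule were named after their values were seen. Other scalings, filters, probe choices, slide and replicate blocks, weights and left-out arrays were tried. Tables were also handled in Python 3.11.15 (pandas 2.3.3), and matplotlib 3.10.9 drew the figures. Results on some single genes are not reported here.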

Additional observations from a re-analysis of the deposited data

Results flagged for a closer look

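In 3 of 93 groups of 5 arrays checked, 1 array lay far from the other 4, by Dixon's criterion, which flags about 1 in 20 groups by chance. Rps27l was highest on knockout array 5 at a level of 4.09, where the next array of the group stood at 3.66. Rpl39l was lowest on active CRHR1 array 1 at -6.95, where the next stood at -4.63, and it was not well above background there. Rpl10, a large subunit protein, was highest on Cre GFP array 2 at 7.54, where the next stood at 7.42.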

How the results depend on the processing

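With the 75th percentile and all 15 arrays, 1 member was higher in knockout against Cre GFP, 0 passed in active CRHR1 against Cre GFP and 20 were lower in active CRHR1 against knockout. Members higher in knockout against Cre GFP numbered 0 with median centring, spike-in scaling, the authors' series values, no filter on dim probes, slide as a fixed block, 1 slide alone, only the groups compared, the replicate block and without knockout arrays 4 and 5. They numbered 2 with normexp, with an intensity trend and with every kept probe, 3 with array weights, 11 with quantile normalization and 0 to 2 with 1 array left out. Members higher in active CRHR1 against Cre GFP numbered 5 with quantile normalization and 1 with spike-in scaling, array weights, the scale within the family and without knockout arrays 4 and 5, and 0 to 1 with an array left out, as did those lower, of which every kept probe gave 1. Members lower in active CRHR1 against knockout numbered 0 (fixed slide block, spike-in scaling, without knockout arrays 4 and 5), 1 (within the family), 2 (median centring, quantile, series values), 4 (no filter), 6 (only the groups compared), 8 (replicate block), 13 (array weights), 32 (trend), 34 (normexp), 47 (every kept probe), 54 (random slide block) and 2 to 36 with an array left out. Members higher there numbered 2 with quantile normalization, 71 with spike-in scaling, and 1 within the family and with every kept probe. The family's median change moved to -0.026 there with quantile normalization, and with spike-in scaling to -0.123, 0.196 and 0.315 in the 3 comparisons. The scale within the family, every kept probe and the pair of knockout arrays were added after seeing the data, and no slide held both active CRHR1 and knockout arrays. The cause of these moves was not tested.

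Single genes also turned sign. In knockout against Cre GFP, Rpl28 was at -0.020 with median centring, -0.094 with quantile normalization, -0.310 with spike-in scaling, -0.185 within the family, -0.087 without knockout arrays 4 and 5 and -0.028 to 0.092 with an array left out. Rpl13a was at -0.249 (spike-in), -0.123 (family) and -0.050 (without knockout arrays 4 and 5), Rpl22l1 at -0.203 and -0.078, Rplp0 at -0.180 and -0.055 and Rps6 at -0.135 and -0.010 (spike-in and family). Spike-in scaling gave -0.077 for Rpl22, -0.031 for Rpl9 and -0.050 for Rps15. In active CRHR1 against knockout, spike-in scaling gave 0.518 for Rpl13a, 0.377 for Rpl22, 0.336 for Rpl22l1, 0.449 for Rpl28, 0.133 for Rpl34, 0.196 for Rpl9, 0.392 for Rplp0, 0.203 for Rps15, 0.014 for Rps2, 0.243 for Rps27, 0.528 for Rps27l and 0.356 for Rps6. Quantile normalization gave 0.149 for Rpl13a, 0.128 for Rpl28, 0.057 for Rplp0, 0.076 for Rps27l and 0.031 for Rps6. Within the family the values were 0.193 for Rpl13a, 0.052 for Rpl22, 0.011 for Rpl22l1, 0.124 for Rpl28, 0.067 for Rplp0, 0.203 for Rps27l and 0.031 for Rps6. Rpl13a was at 0.032 with the fixed slide block, 0.025 with array weights, 0.102 without knockout arrays 4 and 5 and -0.085 to 0.040 with an array left out, Rps27l at 0.047, 0.051, 0.096 and -0.084 to 0.068 in the same order, and Rpl28 at 0.009 without knockout arrays 4 and 5. Samples share replicate numbers across groups, but the 15 pairs of the same number correlated at -0.218 to 0.403, with 3 over 0.1. The replicate block (0 members higher in knockout against Cre GFP, 8 lower in active CRHR1 against knockout) was therefore kept only as an alternative.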

Other observations

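Single probes of members also stood apart, chosen after their values were seen and given without a test. The dimmest probe of Rps3a, a small subunit protein, had levels of 3.62 and 3.90 on knockout arrays 3 and 4 and 0.06 to 0.81 on the other 13 arrays, while its brighter probes showed no such step. The second probe of Rps13 had a level of 5.06 on Cre GFP array 4 and 6.14 to 7.35 on the other 14. The dimmest probe of Rpl11, which binds MDM2 in nucleolar stress, had a level of 2.70 ± 0.28 in knockout, 3.27 ± 0.46 in Cre GFP and 3.30 ± 0.61 in active CRHR1 mice, against the direction of its 2 brighter probes.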
